A study of Mus musculus with 18 samples.

Results

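Tuft cells are rare chemosensory cells of the intestinal epithelium. They depend on the transcription factor Pou2f3, read out luminal metabolites through a taste-type cascade that ends in the cation channel Trpm5, and release Il25, acetylcholine and lipid mediators. In the small intestine, Il25 acts on group 2 innate lymphoid cells (ILC2), whose Il13 in turn raises the number of tuft cells made from crypt progenitors. The expression of 10 genes that mark these cells was examined in mouse ileum after overexpression of Ppara in the intestinal epithelium: Dclk1, Trpm5, Pou2f3, Il25, Avil, Gnat3, Gfi1b, Alox5, Hpgds and Sh2d6. They were taken by symbol from the 55487 genes counted, not by any measured value, although earlier results of these data were known. All 10 were found. All 10 passed the filter on low counts, among 15740 protein-coding genes that did.

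The libraries came from whole-thickness ileum of littermate mice on the C57BL/6J background, with 1 library per mouse and 6 mice per genotype. Mice labelled IEC-Ppara heterozygous or IEC-Ppara homozygous carried 1 or 2 copies of a CAG-Ppara,-EGFP transgene, placed at the Col1a1 locus, together with Villin-CreERT2, whose Villin promoter limits the recombinase to the intestinal epithelium, the layer that also holds tuft cells. Mice labelled Control lacked Villin-CreERT2, and the study describes its controls as CAG-Ppara,-EGFP mice without Cre. In comparisons with controls, effects of Villin-CreERT2 and of Ppara therefore cannot be told apart. All mice, controls included, ate chow, were 8 to 13 weeks old, and received tamoxifen (100 mg/kg) on 3 consecutive days, with tissue taken 2 weeks after the last dose. The controls were 3 females and 3 males, and each IEC-Ppara genotype held 2 females and 4 males. The transgenic strain was founded from 1 targeted clone.

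Library totals ranged from 38528522 to 50376371 counts on genes. Every library of the IEC-Ppara mice exceeded every control in Ppara, which, as counts scaled by the library total (CPM), lay between 25.8 and 47.4 in controls, whereas the heterozygous libraries held 107 to 196 and the homozygous ones 184 to 279. The ranges of heterozygous and homozygous libraries overlapped, so Ppara does not tell these genotypes apart in each library. Markers of the epithelium, such as Epcam and Vil1, were abundant in every library, with a summed level of 13233 to 17762 CPM over 9 genes. In 4 libraries, control 2, control 3, heterozygous 2 and homozygous 1, B cell genes stood far above the rest. Their mean log2 CPM over 10 B cell genes was 3.05 to 5.66 there and at most 0.832 in the other 14 libraries. Several differences below depend on these libraries.

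All 10 tuft cell genes were detected in each genotype, but at very different levels. Since the genes differ in length, their levels were compared as CPM per kilobase of exon. In controls, Sh2d6, an SH2 domain protein of unclear function, was the highest at 12.5 ± 1.91 (SD, n = 6), and its range did not overlap that of Avil, which followed at 5.28 ± 0.666. Avil encodes advillin, an actin-binding protein of the villin family found in the tuft. Trpm5 came next at 3.99 ± 0.842, and its range overlapped that of Avil, although Avil was the higher of the pair in all 18 libraries.

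Below a gap, a group of 4 genes lay close together on this scale in controls: Alox5 at 1.69 ± 0.240, Dclk1 at 1.62 ± 0.448, Pou2f3 at 1.38 ± 0.352 and Hpgds at 1.38 ± 0.280 CPM per kilobase. The ranges of neighbours among these 4 overlapped, and Pou2f3 exceeded Hpgds in 4 of 6 control libraries. Gnat3 followed at 0.902 ± 0.230, above Gfi1b at 0.419 ± 0.127 with no overlap in controls, and Il25 was the lowest at 0.313 ± 0.182. Gfi1b and Il25 could not be put in order, since Gfi1b was the higher in 3 of 6 control libraries.

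**Figure D1:**
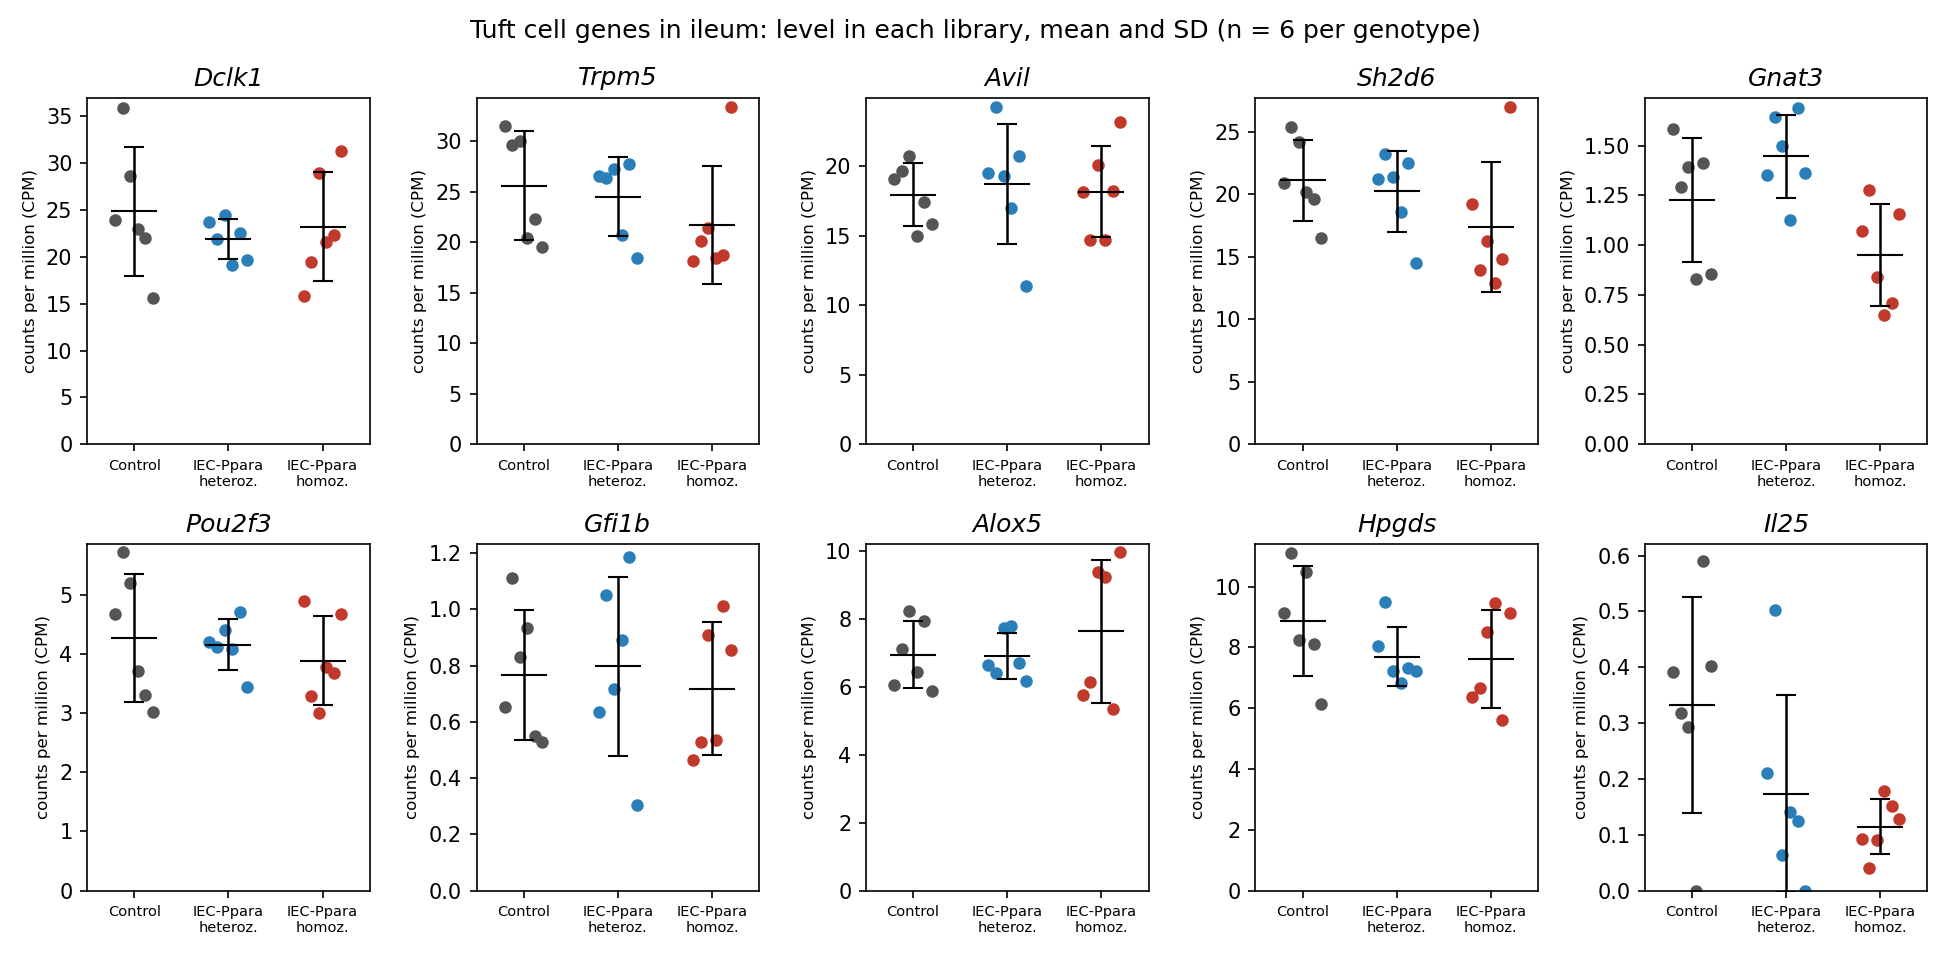
Level of each of the 10 tuft cell genes (vertical axis, CPM, starting at 0) in the 6 libraries of each genotype, with 1 point per library and the mean ± SD in black. The points of the 3 genotypes overlap in every panel, and in the Trpm5 panel 1 homozygous library, at 33.4 CPM, lies apart from the other 5.

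No tuft cell gene passed the test between genotypes. By edgeR's quasi-likelihood test with Benjamini-Hochberg adjustment over 15740 genes, 0 of 10 had an adjusted p under 0.05 in homozygous vs. control mice, where 0.349% of all genes did. The count was also 0 of 10 in heterozygous vs. control mice, with 0.273% of all genes called, and 0 of 10 in homozygous vs. heterozygous mice, where no gene was called (0%). At an unadjusted p under 0.05, 1 member was counted in homozygous vs. control mice (Il25), 0 in heterozygous vs. control mice and 1 in homozygous vs. heterozygous mice (Gnat3), against 8.33%, 4.9% and 7.64% of all genes. DESeq2, limma-voom and limma's trend test also called 0 members in these comparisons, with an adjusted p of 0.386 or more, although DESeq2 gave no adjusted p for Il25 in 1 of them. Both comparisons with controls use the same 6 control libraries and are not independent. The CPM ranges of the genotypes overlapped for all 10 genes in all 3 comparisons, while 0.724%, 0.426% and 0.324% of all genes had ranges that did not.

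The intervals show how large a difference could have gone unseen. In homozygous vs. control mice, the 95% interval of the fold change lay within a 2-fold change in either direction for 9 of 10 genes, as it did for 82.5% of all genes, and within 1.5-fold for 6 of 10, against 67.1%. In heterozygous vs. control mice these counts were 9 (85.5% of all genes) and 7 (70.3%), and in homozygous vs. heterozygous mice 8 (83%) and 6 (66.9%). Il25 was the member outside the 2-fold bound in each comparison, joined by Gnat3 in homozygous vs. heterozygous mice. The median log2 fold change of the 10 genes was -0.16 in homozygous vs. control mice, -0.00 in heterozygous vs. control mice and -0.17 in homozygous vs. heterozygous mice, beside medians of 0.01, 0.00 and -0.00 over all genes. Values were below 0 for 8, 5 and 8 of 10 members, and for 48.2%, 48.4% and 50% of all genes. Without heterozygous 5 the median was -0.0555 in homozygous vs. heterozygous mice. In homozygous vs. control mice it was -0.106 without control 2, with 6 of 10 below 0. Without homozygous 6 it was -0.2365 in both of these comparisons, with 9 of 10 below 0. Without the 4 libraries high in B cell genes, 9 members passed the filter, the one lost being Il25, whose log2 difference was the lowest of the 10 in each comparison of genotypes, and in homozygous vs. control mice 5 of these 9 were below 0, with a median of -0.0154. In heterozygous vs. control mice it was then 1 of 9, with a median of 0.10, and in homozygous vs. heterozygous mice 6 of 9, with a median of -0.03. Of all genes in that fit, 52.3%, 53.5% and 48.9% were below 0 in these 3 comparisons. In bulk tissue, fewer tuft cells and less RNA per tuft cell cannot be told apart.

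**Figure D2:**
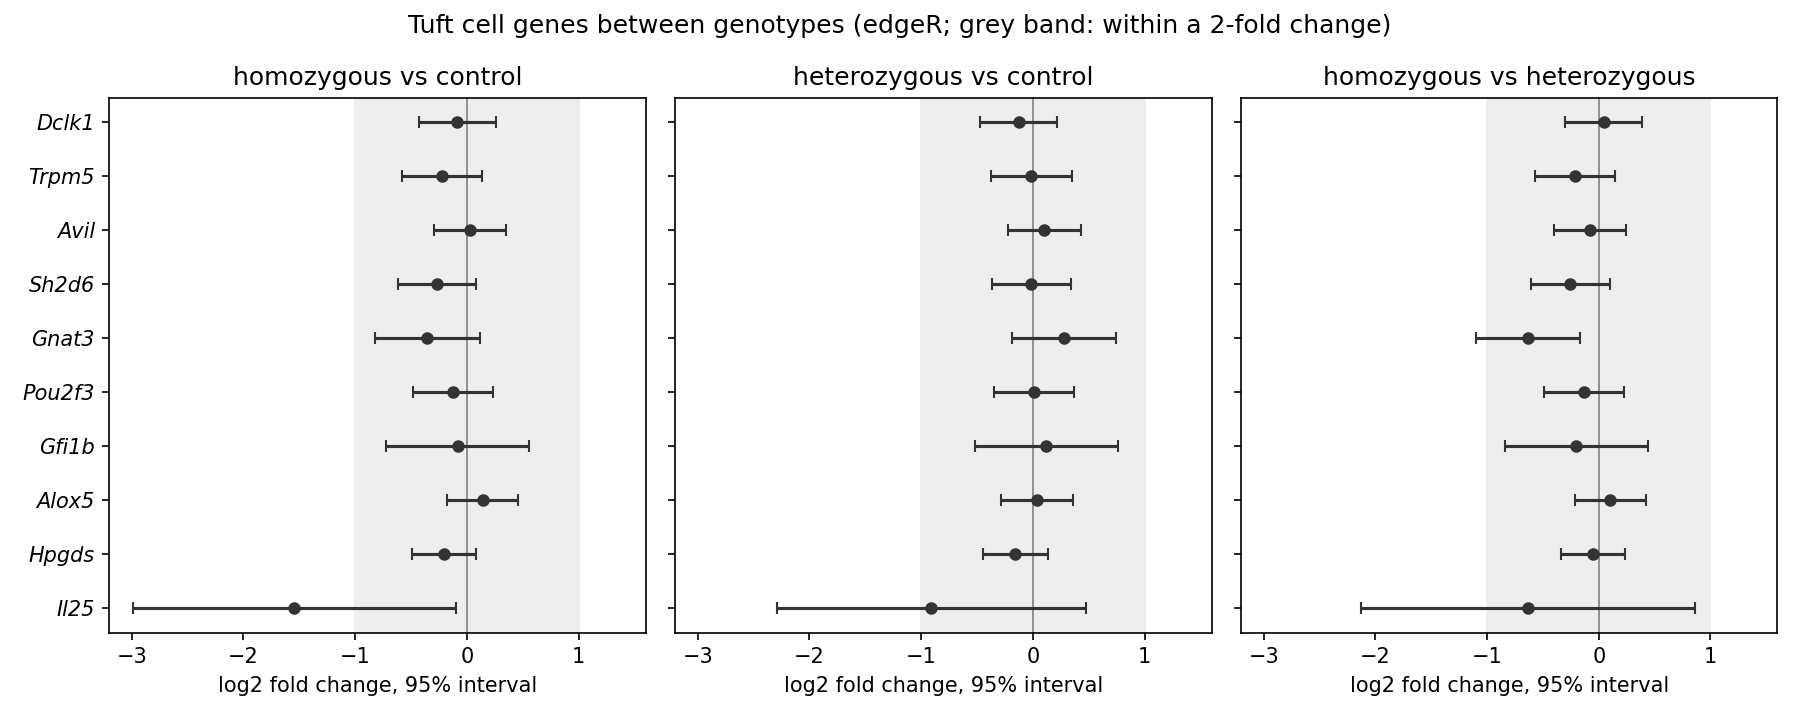
Log2 fold change (horizontal axis) of each tuft cell gene in 3 comparisons of genotypes, with 95% intervals computed from the edgeR test as bars and a grey band marking a 2-fold change in either direction. Intervals of most genes stay inside the band and cross 0, that of Il25 in homozygous vs. control mice reaches from -2.99 to -0.10, and that of Gnat3 in homozygous vs. heterozygous mice from -1.10 to -0.16.

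The taste-type cascade was examined first. Gnat3 encodes gustducin, the G protein alpha subunit that couples taste receptors to phospholipase C. Gnat3 had a lowest, median and highest level of 0.831, 1.34 and 1.59 CPM in controls, of 1.13, 1.43 and 1.69 CPM in heterozygous mice and of 0.647, 0.956 and 1.28 CPM in homozygous mice. The ranges overlapped, but 2 homozygous libraries lay below the lowest library of either other genotype. The log2 difference was -0.63 (SE 0.22) in homozygous vs. heterozygous mice, which met an unadjusted p of 0.0108 but not the threshold after adjustment (edgeR, adjusted p = 0.604). Against controls it was 0.28 (SE 0.22) in heterozygous and -0.35 (SE 0.22) in homozygous mice, with adjusted p of 0.9999 and 0.706. Gnat3 rested on 28 to 81 counts per library.

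Trpm5 encodes the calcium-gated cation channel that depolarises the tuft cell at the end of this cascade. Its levels in controls ran from 19.5 to 31.5 CPM around a median of 26.0, in heterozygous mice from 18.5 to 27.7 around 26.5, and in homozygous mice from 18.1 to 33.4 around 19.4. In 5 of the 6 homozygous libraries Trpm5 was at most 21.4 CPM, while homozygous 6 held the highest value of all 18 libraries. The log2 difference in homozygous vs. control mice was -0.22 (SE 0.17, edgeR adjusted p = 0.758). Without homozygous 6 it was -0.40, past an unadjusted p of 0.05 but with an adjusted p of 0.519, and without the 4 libraries high in B cell genes it was -0.08. In heterozygous vs. control mice the difference was -0.01 (SE 0.17), or 0.08 without those 4 libraries, and in homozygous vs. heterozygous mice -0.21 (SE 0.17), or -0.39 without homozygous 6.

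Of the cytoskeletal and signalling proteins of the tuft, Sh2d6 had the same form. Sh2d6 ran from 16.5 to 25.4 CPM in controls (median 20.5), from 14.5 to 23.2 CPM in heterozygous mice (median 21.3) and from 12.9 to 27.0 CPM in homozygous mice (median 15.6). Its highest value again came from homozygous 6, and 4 homozygous libraries lay below every control. The log2 difference from controls was -0.27 (SE 0.17, adjusted p = 0.704) in homozygous mice and -0.01 (SE 0.17) in heterozygous mice, the latter 0.065 without the 4 libraries high in B cell genes. Leaving out homozygous 6 moved the former to -0.45, with an adjusted p of 0.355, and leaving out the 4 libraries high in B cell genes moved it to -0.20. In homozygous vs. heterozygous mice the difference was -0.25 (SE 0.17), or -0.44 without homozygous 6.

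Avil differed less between the genotypes. It ran from 14.9 to 20.7 CPM in controls, from 11.4 to 24.2 CPM in heterozygous mice and from 14.7 to 23.2 CPM in homozygous mice, with medians of 18.2, 19.4 and 18.2. Its log2 difference in homozygous vs. control mice was 0.02 (SE 0.15), and the 95% interval ran from 0.813-fold to 1.27-fold. It was 0.09 without the 4 libraries high in B cell genes. Both the lowest and the highest library for Avil were heterozygous.

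Dclk1 encodes a microtubule-associated kinase and is the most used marker of mouse tuft cells. Dclk1 ran from 15.6 to 35.9 CPM in controls (median 23.5), from 19.2 to 24.5 CPM in heterozygous mice (median 22.2) and from 15.8 to 31.3 CPM in homozygous mice (median 22.0). The control group alone spanned the values of both other genotypes, from control 6 at the bottom to control 2 at the top. The log2 differences were -0.08 in homozygous and -0.13 in heterozygous mice vs. controls (SE 0.17 each, adjusted p 0.942 and 0.9999). Without the 4 libraries high in B cell genes, of which control 2 is 1, these differences were 0.21 and 0.09. With the mean log2 CPM of 10 enteric neuron and glia genes, Dclk1 had r = 0.336 and rho = 0.0939 (permutation, adjusted p = 0.509 and 0.858). That r was 0.561 without the 4 libraries and -0.67 within heterozygous mice. The part of enteric neurons and glia in the Dclk1 level was not tested.

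The transcription factors were among the lower members. Pou2f3, a POU domain factor on which tuft cell formation depends, ran from 3.02 to 5.72 CPM in controls, from 3.43 to 4.71 CPM in heterozygous mice and from 3.00 to 4.89 CPM in homozygous mice. Medians were 4.19, 4.16 and 3.72 CPM, and the ranges overlapped almost throughout. The log2 difference was -0.12 (SE 0.17, adjusted p = 0.904) in homozygous vs. control mice and 0.01 (SE 0.17) in heterozygous vs. control mice, and without the 4 libraries high in B cell genes these were -0.015 and 0.218. In homozygous vs. control mice it ran from -0.202 to -0.049 when single libraries were left out.

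Gfi1b, a zinc finger repressor that tuft cells share with blood cell precursors, ran from 0.529 to 1.11 CPM in controls, from 0.303 to 1.19 CPM in heterozygous mice and from 0.465 to 1.01 CPM in homozygous mice. It had 12 to 57 counts per library and the second widest intervals, with a log2 difference of -0.08 (SE 0.31) in homozygous vs. control mice, or 0.19 without the 4 libraries high in B cell genes. Megakaryocyte and red cell markers, the other likely site of Gfi1b, summed over 8 genes to 23.6 to 80.0 CPM in controls, whereas heterozygous mice held 20.5 to 69.3 CPM and homozygous mice 21.0 to 113 CPM, and their part in the Gfi1b level was not tested.

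The enzymes of lipid mediator synthesis gave the narrowest intervals. Alox5, the 5-lipoxygenase that begins leukotriene synthesis and is also made by myeloid cells, ran from 5.87 to 8.22 CPM in controls (median 6.77) and from 6.16 to 7.77 CPM in heterozygous mice (median 6.67). In homozygous mice it ran from 5.35 to 9.96 CPM (median 7.68), and both ends of the whole series were homozygous libraries. The log2 difference in homozygous vs. control mice was 0.14 (SE 0.15, adjusted p = 0.857), or 0.265 without the 4 libraries high in B cell genes. It ran from 0.039 to 0.223 when single libraries were left out.

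Hpgds, the hematopoietic prostaglandin D synthase, ran from 6.12 to 11.1 CPM in controls (median 8.68), from 6.83 to 9.51 CPM in heterozygous mice (median 7.26) and from 5.62 to 9.44 CPM in homozygous mice (median 7.58). The log2 differences from controls were -0.21 (SE 0.14, adjusted p = 0.718) in homozygous and -0.16 (SE 0.14) in heterozygous mice. The former was -0.12 without the 4 libraries high in B cell genes. The levels of the genotypes overlapped over most of their range.

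Il25, the cytokine by which tuft cells signal to ILC2, was measured least precisely. It had 18, 16, 12, 0, 28 and 16 counts in controls 1 to 6, 10, 22, 3, 6, 6 and 0 counts in the heterozygous libraries, and 4, 2, 4, 8, 6 and 6 counts in the homozygous libraries. Thus 5 of 6 controls held 12 counts or more and each homozygous library 8 or fewer, but the groups overlapped because control 4 had none. As CPM, Il25 was 0.333 ± 0.194 in controls, 0.174 ± 0.176 in heterozygous mice and 0.114 ± 0.0494 in homozygous mice (SD, n = 6). The log2 difference in homozygous vs. control mice was -1.55 (SE 0.69), with an unadjusted p of 0.0373 and an adjusted p of 0.570 by edgeR. Without control 4, it was -1.81, with an adjusted p of 0.273, the smallest that any alternative gave for a member, and without control 5, the library with 28 counts, it was -1.33 with an adjusted p of 0.539. It was smaller by limma, at -1.01 with voom and -0.93 with the trend test, and neither of these passed an unadjusted p of 0.05. In heterozygous vs. control mice it was -0.91 (SE 0.66, adjusted p = 0.9999), or -1.53 with an adjusted p of 0.580 without heterozygous 2, the library with 22 counts. In homozygous vs. heterozygous mice it was -0.64 (SE 0.71), or -0.01 without heterozygous 2. Il25 did not pass the filter without the 4 libraries high in B cell genes and has no value there.

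The receptor subunit for Il25, Il17rb, was chosen after its values were seen and lay at 5.81 ± 0.695 CPM in controls, 5.74 ± 1.30 CPM in heterozygous mice and 4.76 ± 1.19 CPM in homozygous mice. The summed level of 8 T cell markers was 35.0 to 89.4 CPM in controls, while heterozygous mice held 25.1 to 64.2 CPM and homozygous mice 27.2 to 37.2 CPM. Over the 18 libraries, the T cell score and Il25 correlated with r = 0.649 and rho = 0.702 (permutation p = 0.00379 and 0.00159), which missed the threshold after adjustment over 100 relations (adjusted p = 0.189 and 0.159). With the 2 libraries of most extreme T cell score dropped, r was 0.678. It was 0.573 in controls and 0.733 in heterozygous mice but -0.814 in homozygous mice (n = 6 each, given without a test). The part of T cells in the Il25 difference was not tested.

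Sex was compared in the same libraries, with the genotype kept in the fit. By edgeR 0 of 10 members differed between males and females at an adjusted p under 0.05, where 0.0508% of all genes did, and 1 did at an unadjusted p under 0.05, against 3.54% of all genes. This member was Alox5, which ran from 5.35 to 6.65 CPM in 7 females (median 6.14) and from 5.75 to 9.96 CPM in 11 males (median 7.77). Mean levels in males exceeded those in females within controls (7.75 and 6.12 CPM), within heterozygous mice (7.08 and 6.52 CPM) and within homozygous mice (8.57 and 5.74 CPM). The log2 difference was 0.33 (SE 0.11) with an edgeR adjusted p of 0.996. The 95% interval lay within a 2-fold change for 9 members and within 1.5-fold for 9, against 88.7% and 74.7% of all genes, and 1 member was lower in males, against 47% of all genes. DESeq2 called 0 of 10 members as well.

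The spread between mice of 1 genotype was set beside counting error, as a description. The within-genotype coefficient of variation was 18.5% to 34.7% for 9 genes and 74.4% for Il25. Counting error, taking 2 counts for each sequenced fragment as described in the methods, came to 4.32% to 24.3% for these 9 genes and 46.4% for Il25. The margin was narrow for Gnat3, at 21.7% against 19.2%.

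The members were then correlated with each other. Of the 45 pairs among the 10 genes, 44 had a positive Pearson correlation of log2 CPM over the 18 libraries, with a median r of 0.446 and a range from -0.0927 to 0.849. After adjustment over the 45 pairs, 10 pairs passed a permutation test (100000 permutations) at 0.05, and 5 pairs did in the 14 libraries left when those high in B cell genes were omitted. The share of passing or positive pairs among all genes was not computed. Genes of whole-thickness tissue also share library depth and composition, so these counts are not a trait shown to be particular to tuft cell genes. The closest pair was Trpm5 and Sh2d6, with r = 0.849 and rho = 0.841 (permutation p = 2e-05 and 3e-05, adjusted p = 0.0009 and 0.00135). It held at r = 0.847 once the 2 libraries most distant in Trpm5 were dropped, at 0.794 in controls, 0.942 in heterozygous and 0.816 in homozygous mice, and at 0.870 without the 4 libraries high in B cell genes.

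By Pearson r, Trpm5 and Sh2d6 formed the centre of this pattern. Trpm5 passed with 5 other members and Sh2d6 with 4. By rho, Trpm5 with Pou2f3 and Gnat3 with Sh2d6 missed the threshold (permutation, adjusted p = 0.0652 each). Dclk1 with Avil and Dclk1 with Sh2d6 passed by rho only (permutation, adjusted p = 0.0294 each). Sh2d6 correlated with Avil at r = 0.748 and rho = 0.804 (permutation p = 0.00025 and 6e-05, adjusted p = 0.00555 and 0.00135), at 0.740 without the 2 farthest libraries and at 0.717 without the 4 libraries high in B cell genes. Its correlation with Pou2f3 was r = 0.734 and rho = 0.750 (permutation p = 0.00061 and 0.00052, adjusted p = 0.00639 and 0.00486). Trpm5 correlated with Avil at r = 0.725 and rho = 0.748 (permutation p = 0.00037 and 0.00054, adjusted p = 0.00555 and 0.00486), and with Dclk1 at r = 0.706 and rho = 0.775 (permutation p = 0.00071 and 0.00024, adjusted p = 0.00639 and 0.0036). The remaining 5 pairs, Avil with Gfi1b, Dclk1 with Hpgds, Trpm5 with Pou2f3, Trpm5 with Gnat3 and Gnat3 with Sh2d6, had r between 0.590 and 0.703. Without the 2 farthest libraries, r of these pairs was 0.477, 0.489, 0.639, 0.681 and 0.356 in that order.

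**Figure D3:**
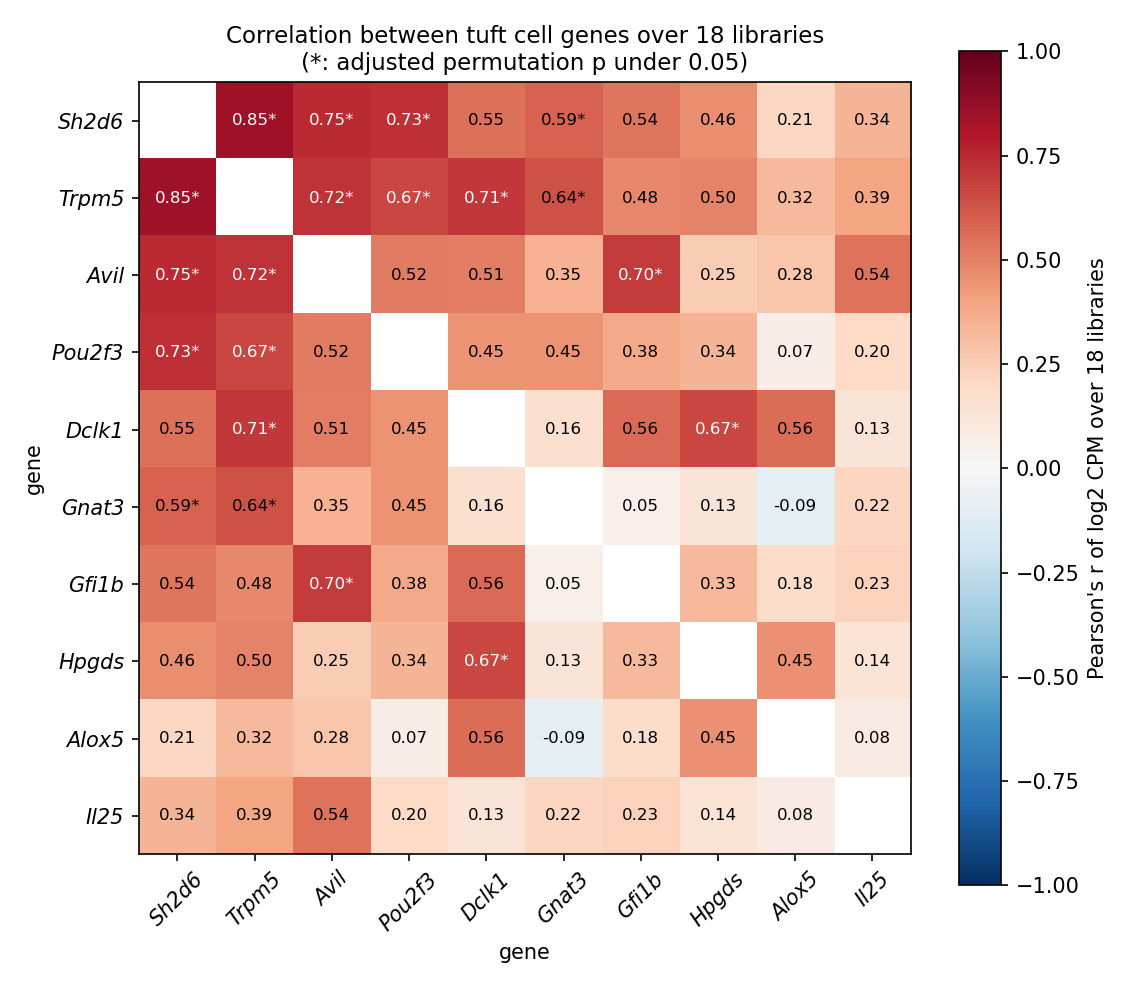
Pearson correlation of log2 CPM over 18 libraries for each pair of the 10 tuft cell genes, as colour and number, with an asterisk where the adjusted permutation p is under 0.05. Among Sh2d6, Trpm5, Avil, Pou2f3 and Dclk1, r ran from 0.452 to 0.849, and not every pair of them holds an asterisk. Some pairs outside this corner do, such as Avil with Gfi1b at 0.703, whereas the rows of Alox5 and Il25 hold no asterisk.

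Alox5 and Il25 passed with no other member, with median r over their 9 pairs of 0.210 and 0.217. Alox5 and Hpgds, the enzymes that begin the leukotriene and end the prostaglandin D2 pathway, correlated with r = 0.454 and rho = 0.511 over all 18 libraries (permutation p = 0.0589 and 0.0316, adjusted p = 0.121 and 0.0837). In homozygous mice both genes split the libraries in the same way, with homozygous 3, 4 and 6 high for each and homozygous 1, 2 and 5 low, and no such split was seen in heterozygous mice. A within-genotype r of 0.977 in homozygous and -0.521 in heterozygous mice rests on 6 libraries each and was not tested. Homozygous 3 and 4 also had the highest macrophage and dendritic cell scores of the 18 libraries, at 5.33 and 5.14 mean log2 CPM, and the highest mast cell and granulocyte scores, at 0.759 and 0.705, but homozygous 6 was at 4.26 and -1.32. With the macrophage and dendritic cell score, Alox5 had r = 0.498 and rho = 0.443 (permutation p = 0.0351 and 0.0666, adjusted p = 0.368 and 0.359), and r was 0.196 once the 2 libraries most distant in that score were dropped. The part of myeloid cells in the split was not tested.

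**Figure D4:**
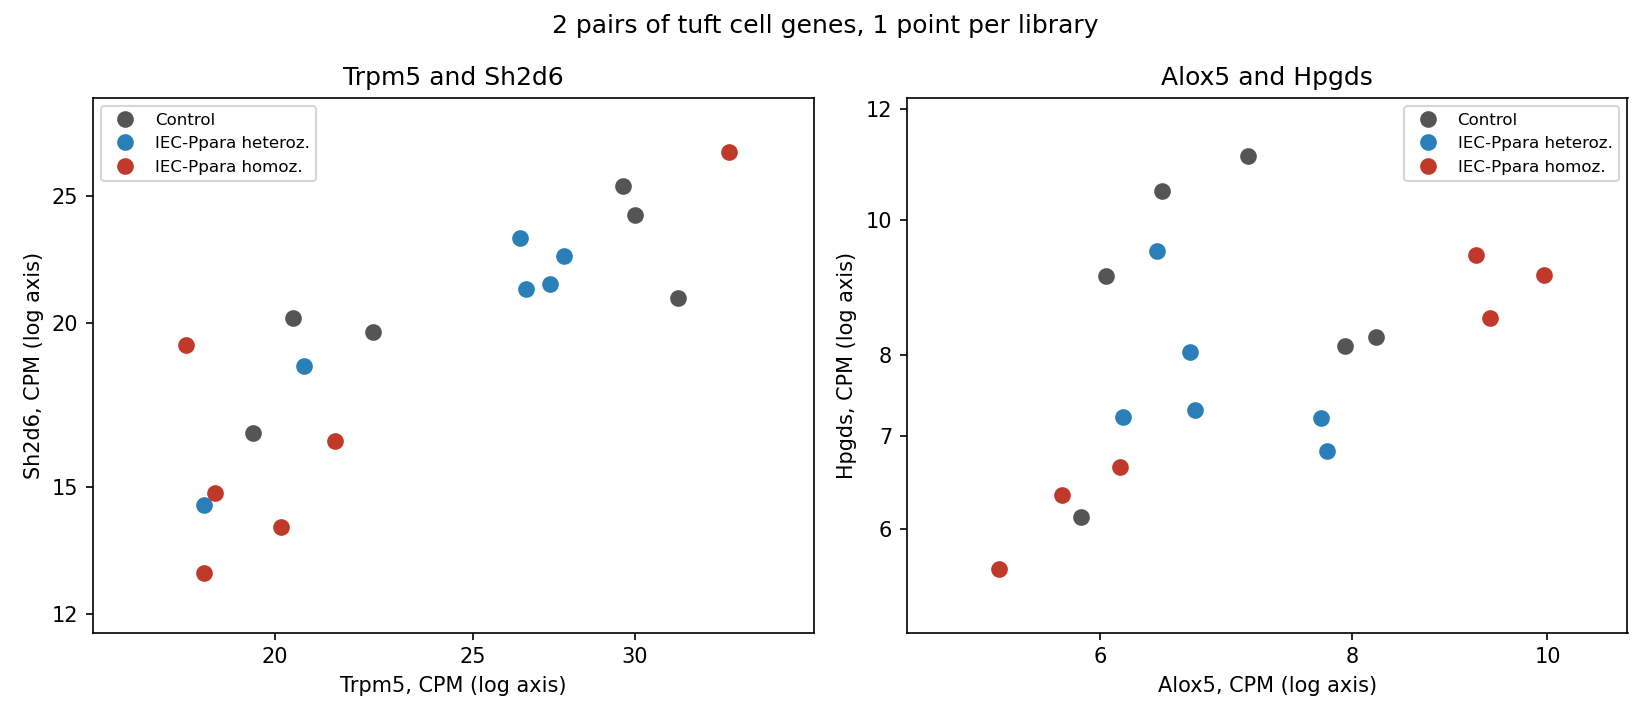
Levels of 2 pairs of tuft cell genes in each library (both axes in CPM, log scale), coloured by genotype. On the left, Trpm5 and Sh2d6 are high in the same libraries across the 3 genotypes (r = 0.849); on the right, Alox5 and Hpgds fall into a high and a low group of 3 in homozygous mice, while the other genotypes scatter.

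The genes most like each member were then sought among all 15740 genes tested, by the correlation of log2 CPM over 18 libraries after the mean of each genotype was removed. These values are a description and share library depth and composition. For Trpm5 the first 5 were Siglecf (r = 0.938), Ccnj (0.885), Sh2d7 (0.882), Strip2 (0.864) and Ap5m1 (0.829). Siglecf, a sialic acid-binding lectin of eosinophils, and Sh2d7 are also known from tuft cells. For Sh2d6 they were Avil (0.836), Siglecf (0.825), Trpm5 (0.824), Rgs13 (0.820) and Mpg (0.802), and for Avil they included Sh2d6 (0.836), Siglecf (0.789), Trpm5 (0.777) and Trim38 (0.773). Pou2f3 was most like Zc3h12d (0.850), Ptpn2 (0.836), Krt23 (0.829), Mpg (0.808) and Rgs13 (0.800). Dclk1 was most like Kctd12 (0.864), 0610010F05Rik (0.854), St8sia4 (0.853), Trak2 (0.832) and Ocrl (0.828).

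Among the 5 genes nearest each of the other members, 1 was on a tuft cell list. Gfi1b was most like Chat (0.795), the acetylcholine-synthesising enzyme of tuft cells, and its first 5 also held Prkag3, Kbtbd3 and H2-M9. Gnat3 was most like Gm17655 (0.734), Gm10639, Gid8, Ces1e and Tm4sf4, Alox5 like Hrct1 (0.778), Fam131c, Il1rn, Dmrt3 and Cela1, Hpgds like Nlrp1a (0.895), Nprl3, Rgs12, Pot1a and Apbb3, and Il25 like Spag6 (0.808), H2-M2, P2ry13, Cdca5 and Klrd1. Among the 50 genes most like Sh2d6 were 3 other members and 7 further listed tuft cell genes. For Trpm5 and for Avil the counts were 3 and 6, for Alox5 they were 0 and 2 (Alox5ap and Pik3r5), and for Hpgds 0 and 0.

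Correlations of the 10 members with summary scores of 10 other cell types gave 100 relations, of which 0 had an adjusted p under 0.05 by permutation, for r as for rho. The largest r was that of Dclk1 with the epithelium score, r = -0.650 and rho = -0.610 (permutation p = 0.00363 and 0.00862, adjusted p = 0.189 and 0.164), which was -0.440 without the 2 farthest libraries and -0.411 after scaling by TMM. Hpgds had r = -0.610 with the epithelium score and 0.569 with the macrophage and dendritic cell score (adjusted p = 0.215 and 0.271, permutation). Pou2f3 had r = 0.591 with the B cell score (adjusted p = 0.215, permutation) but -0.0526 without the 4 libraries high in B cell genes. In homozygous vs. control mice, 8 of 8 smooth muscle genes had log2 differences above 0 (48.2% of all genes were below 0), with a median of 0.59 and 0 called or at an unadjusted p under 0.05 by edgeR, and their summed level was 441 to 5161 CPM in controls and 3440 to 8122 CPM in homozygous mice. All 8 fibroblast genes were above 0 too, with a median of 0.35, 0 called and 2 at an unadjusted p under 0.05, as were 10 of 10 genes of enteric neurons and glia, with a median of 0.59, 2 at an unadjusted p under 0.05 (8.33% of all genes were) and 1 called (Ret at 0.90, SE 0.12, edgeR adjusted p = 0.000352). The summed level of the neuron and glia genes was 22.1 to 85.3 CPM in controls and 68.9 to 145 CPM in homozygous mice. The part of these shifts in the members' levels was not tested.

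A wider list of tuft cell genes was examined in the same way. Among 50 further tuft cell genes that passed the filter, edgeR called 0 in each of the 3 comparisons of genotypes, and 7, 1 and 3 had an unadjusted p under 0.05 in homozygous vs. control, heterozygous vs. control and homozygous vs. heterozygous mice, where 8.33%, 4.9% and 7.64% of all genes did. Their median log2 differences were -0.08, -0.06 and -0.07, with 32, 32 and 34 of 50 below 0. In the fit without the 4 libraries high in B cell genes 0, 1 and 6 had an unadjusted p under 0.05 by edgeR, against 945, 700 and 1268 of 15575 genes. In that fit 28, 22 and 25 were below 0, against 52.3%, 53.5% and 48.9% of all genes, and edgeR called 0. Of the 9 taste signalling genes, 5 lay below 0 in homozygous vs. control mice, including the inositol trisphosphate receptor Itpr3 at -0.13 (SE 0.12). Itpr2, its homologue, was at 0.02 (SE 0.14), and the G protein regulator Rgs13 was at -0.20 (SE 0.23), and without the 4 libraries high in B cell genes these were 0.16 and -0.07. Plcb2, the phospholipase of taste transduction, had the lowest p of this group at -0.41 (SE 0.15, edgeR adjusted p = 0.454), or -0.19 without the 4 libraries high in B cell genes, and was chosen after its values were seen.

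Of the 8 genes for eicosanoids and acetylcholine, all were above 0 in homozygous vs. control mice, where 48.2% of all genes were below 0, with a median of 0.23, and 0 were called or had an unadjusted p under 0.05 by edgeR. In the fit without the 4 libraries high in B cell genes 1 of 8 was below 0, against 52.3% of all genes. Of these 8, Chat at 0.16 (SE 0.24), Slc18a3 at 0.29 (SE 0.44) and Slc5a7 at 0.89 (SE 0.48) are also genes of enteric neurons, whose 10 markers were above 0 in the same comparison, and their part in this list was not tested. In the fit without the 4 libraries Chat was at 0.41 (SE 0.27), Slc18a3 at 0.59 (SE 0.55) and Pla2g4a at 0.04 (SE 0.10). Ptgs1, the constitutive cyclooxygenase, was at 0.17 (SE 0.10), the phospholipase Pla2g4a at 0.13 (SE 0.08) and Alox5ap, the partner protein of Alox5, at 0.47 (SE 0.35). In heterozygous vs. control mice 3 of these 8 were below 0, and the median was 0.03. Of 6 transcription factors, 5 were below 0 in homozygous vs. control mice, with Sox9 at -0.10 (SE 0.09), Ascl2 at -0.15 (SE 0.17) and Spib at -0.92 (SE 0.51, edgeR adjusted p = 0.662). Spib, which B cells also express, turned to 0.39 (SE 0.24, edgeR adjusted p = 0.841) without the 4 libraries high in B cell genes, and Ascl2 was then -0.29 (SE 0.20) and Sox9 -0.06 (SE 0.10). Of 16 structural and surface genes, 12 were below 0, with a median of -0.06. Krt18 was at -0.08 (SE 0.10), Cd24a at -0.16 (SE 0.10) and Espn at 0.05 (SE 0.11), and without the 4 libraries Krt18 was at -0.16 (SE 0.12) and Espn at -0.06 (SE 0.12).

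Tuft cell genes that leukocytes also express depended on the 4 libraries high in B cell genes. In homozygous vs. control mice 10 of these 11 genes were below 0, against 48.2% of all genes, with a median of -0.39, and 5 had an unadjusted p under 0.05, against 8.33% of all genes, among them Plcg2 at -0.39 (SE 0.13, edgeR adjusted p = 0.420) and Ptpn6 at -0.43 (SE 0.20, edgeR adjusted p = 0.599). Rac2 was at -0.69 (SE 0.35, edgeR adjusted p = 0.636). Without the 4 libraries, 7 of the 11 genes were below 0, against 52.3% of all genes, with a median of -0.01. By edgeR 0 were called and 0 had an unadjusted p under 0.05, which 945 of 15575 genes had in that fit. Plcg2 was then at -0.13 (SE 0.08), Ptpn6 at -0.05 (SE 0.09) and Rac2 at 0.00 (SE 0.19). In the fit of all 18 libraries 10 of 10 B cell genes were lower as well, with a median of -2.77, and 7 of 7 T cell genes, with a median of -0.93. All 17 had an unadjusted p under 0.05 by edgeR, and 0 an adjusted p under 0.05. Without the 4 libraries, 9 of 10 B cell genes (median -0.35) and 7 of 7 T cell genes (median -0.53) were below 0. Of these lists, 3 and 5 genes then had an unadjusted p under 0.05 by edgeR, against 945 of 15575 genes, and 0 were called. In heterozygous vs. control mice 7 of 7 T cell genes were below 0 in both fits, with medians of -0.70 and -0.65. In each fit 4 of them had an unadjusted p under 0.05 by edgeR, against 4.9% of all genes and 700 of 15575 genes. The summed level of B cell genes ran from 18.4 to 567 CPM in controls and from 12.6 to 94.6 CPM in homozygous mice.

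In the circuit of tuft cells and ILC2, 17 of 20 listed genes passed the filter and 0 were called in any comparison of genotypes by edgeR. An unadjusted p under 0.05 was met by 2, 0 and 3 in homozygous vs. control, heterozygous vs. control and homozygous vs. heterozygous mice. The shares of all genes were 8.33%, 4.9% and 7.64%. Without the 4 libraries high in B cell genes these counts were 3, 0 and 4 of 17, against 945, 700 and 1268 of 15575 genes. Of the circuit's most highly expressed genes per length, the log2 differences in homozygous vs. control mice were near 0, with Stat6 at -0.03 (SE 0.05), Il13ra1 at -0.04 (SE 0.09) and Il4ra at 0.03 (SE 0.13). Once the 4 libraries high in B cell genes were dropped, Il13ra1 was at -0.11 (SE 0.09) and Il4ra at 0.04 (SE 0.16). Il17rb was at -0.28 (SE 0.17, edgeR adjusted p = 0.704), or -0.17 without them, and the interval lay within a 1.5-fold change for 7 of the 17 genes, against 67.1% of all genes. The cytokine Il13 was below the filter, with 0 to 20 counts per library. A pair of mucosal mast cell proteases, chosen after their values were seen, had the smallest p of these 17 genes in homozygous vs. control mice. Mcpt2 was at 0.914 ± 0.327 CPM in controls, 0.671 ± 0.270 CPM in heterozygous mice and 0.351 ± 0.174 CPM in homozygous mice (SD, n = 6), a log2 difference of -1.36 (SE 0.40, edgeR adjusted p = 0.256) in homozygous vs. control mice. Mcpt1 was at 2.08 ± 0.950, 1.56 ± 0.532 and 0.868 ± 0.640 CPM in that order, a log2 difference of -1.25 (SE 0.42, edgeR adjusted p = 0.419). Without the 4 libraries high in B cell genes, Mcpt2 was at -1.52 (SE 0.42, edgeR adjusted p = 0.393) and Mcpt1 at -1.70 (SE 0.44, edgeR adjusted p = 0.303). Neither passed after adjustment, and the homozygous ranges of both overlapped those of controls. The list of mast cell and granulocyte markers did not share this direction, with 2 of 5 tested genes below 0 and a median of 0.47, Cpa3 of mast cells being at -0.01 (SE 0.50) and Tpsb2 at 0.47 (SE 0.39). In the fit without the 4 libraries high in B cell genes 1 of 5 was below 0, against 52.3% of all genes. Cpa3 was then at 0.48 (SE 0.48) and Tpsb2 at 0.16 (SE 0.46). Retnlb, a goblet cell product chosen after its values were seen, had the smallest p of the circuit list in homozygous vs. heterozygous mice and a log2 difference of 2.68 (SE 0.90, edgeR adjusted p = 0.589), with 4 to 251 counts in homozygous and 0 to 32 counts in heterozygous libraries. In homozygous vs. control mice Retnlb was at 1.34 (SE 0.84, edgeR adjusted p = 0.704), with 2 to 76 counts in controls.

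The members lie on 8 chromosomes in the mouse build GRCm38. Hpgds, Sh2d6 and Alox5 are on chromosome 6, at chr6:65117293-65144908, chr6:72513641-72521707 and chr6:116410077-116461178, all on the minus strand. Trpm5 is at chr7:143069153-143094642, Pou2f3 at chr9:43123939-43210369 and Gfi1b at chr2:28609450-28621982, also on the minus strand. On the plus strand are Dclk1 at chr3:55242364-55539068, Gnat3 at chr5:17962549-18019834, Avil at chr10:127000709-127020994 and Il25 at chr14:54932695-54935837. The counts of 7 members come from exons that overlap no other annotated gene. Exons of Trpm5 overlap those of Tssc4 on the opposite strand by 220 bases, those of Avil overlap Tsfm by 165 bases and those of Dclk1 overlap the predicted genes Gm42609 and Gm21954 by up to 87 bases, and the library preparation described did not mark the strand. The authors counted only reads that were unambiguous between genes.

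Promoters were read because Pou2f3, itself a member, binds the octamer. RefSeq promoter windows (GRCm38.p6, 250 bases before to 50 bases after the start) were matched by symbol for 8 members, in 9 windows. The octamer ATGCAAAT, searched on both strands, was in 1 of these 9 windows and in 570 of all 32851 windows of that length (1.74%). It lies 174 bases upstream of the RefSeq start of Hpgds. The annotation used for the counts puts that start at chr6:65144908, so the octamer lies just inside the gene there. The 30-base stretch around the octamer, chr6:65144886-65144915 on the minus strand, is shown here with the octamer in capitals because it is the only member window that holds it.
Hpgds: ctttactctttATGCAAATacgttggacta
The direct repeat element bound by PPARα with its partner RXR was in 0 of the 9 windows and in 13 of all windows (0.0396%). A match or its absence in these windows is a description of the letters and not of binding.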

How the data were processed

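Ileal libraries of 18 mice were grouped by the genotype in the sample labels. The authors aligned paired reads with STAR to GRCm38 and counted uniquely aligned, unambiguous reads per gene with featureCounts. The deposited counts are not normalized. Between 73.2% and 75.6% of counts from 1 to 30 were even in each library, so a sequenced pair mostly gave 2 counts, and counting errors were computed on counts divided by 2. The CPM deposited by the authors are counts divided by the library total. The log2 CPM values deposited by the authors were used in 1 alternative, and the FPKM deposited by the authors were not used. CPM per kilobase was computed here from CPM and the exon length.

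Protein-coding genes with at least 10 counts in at least 6 libraries were compared with edgeR 4.0.16 (quasi-likelihood, TMM, 1 coefficient per genotype, 18 libraries) in R 4.3.3. This filter was chosen in place of the study's (over 3 CPM in at least 4 libraries), which removes Il25, Gnat3 and Gfi1b. For correlations, a prior count of 2 was added before the log2 of CPM was taken. The pipeline was tested on simulated data. Alternatives were DESeq2 1.42.0, limma 3.58.1 (voom and trend), other scalings, filters, biotypes, covariates and sample sets, and, chosen after seeing the data, halved counts and the wider gene lists without the 4 libraries high in B cell genes. The members, gene lists and tests were chosen with earlier results of these data known. The other genes named are the 3 highest per length in controls in each list and the 5 genes most like each member, unless said otherwise. In the lists of most like genes, 2 entries are not reported here.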

Additional observations from a re-analysis of the deposited data

Results flagged for a closer look

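In homozygous mice, Trpm5 was 33.4 CPM in homozygous 6, far above the next library at 21.4 CPM. The gap took up 0.784 of the group's range, beyond Dixon's 95% critical value for 6 samples. It was the only flag in 30 groups of 6 libraries (10 genes in 3 genotypes), where chance flags about 1 in 20.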

How the results depend on the processing

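Over 972 alternative values of the members' log2 differences, 927 kept their direction, 45 reversed and 0 were called, with 0.273 as the lowest adjusted p and 1 value without an adjusted p. Over all genes, DESeq2 called 140 genes in homozygous vs. control mice, 77 in heterozygous vs. control mice, 10 in homozygous vs. heterozygous mice and 19 between the sexes, against 55, 43, 0 and 8. In homozygous vs. heterozygous mice, limma's trend test and scaling by library size each called 1. In heterozygous vs. control mice the replicate block called 23, and the 12 libraries compared, fitted alone, 25. Without the 4 libraries high in B cell genes the counts were 31 in homozygous and 16 in heterozygous vs. control mice, and 5 member pairs passed. Leaving out 1 library at a time gave 46 to 65, 28 to 53 and 0 to 2 genes in the 3 genotype comparisons, with 28 without heterozygous 6, 2 without heterozygous 4 and 1 without homozygous 1. The cause of these shifts was not tested.

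Reversed values in heterozygous vs. control mice were -0.006 for Pou2f3, -0.013 for Gfi1b and -0.002 for Alox5 by limma's trend test, -0.040 for Pou2f3 and -0.009 for Alox5 with library sizes, -0.011 and -0.008 for the same genes with sex in the fit, and -0.004 for Pou2f3 with the study's filter. Il25 was 0.045 in homozygous vs. heterozygous mice by limma's trend test, and Gfi1b -0.003 between the sexes without a filter. Without the 4 libraries high in B cell genes, Dclk1 was 0.212 and Gfi1b 0.191 in homozygous vs. control mice, Dclk1 0.094, Trpm5 0.080 and Sh2d6 0.065 in heterozygous vs. control mice, Hpgds 0.050 in homozygous vs. heterozygous mice, and Pou2f3 -0.018 and Gfi1b -0.025 between the sexes. When single libraries were left out, reversals occurred in homozygous vs. control mice for Avil (-0.068 to 0.079), Dclk1 (-0.199 to 0.020) and Gfi1b (-0.209 to 0.023), in heterozygous vs. control mice for Gfi1b (-0.074 to 0.287), Pou2f3 (-0.063 to 0.093), Sh2d6 (-0.081 to 0.071) and Trpm5 (-0.088 to 0.061), and in homozygous vs. heterozygous mice for Dclk1 (-0.072 to 0.130) and Hpgds (-0.124 to 0.021).

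Same-numbered libraries of different genotypes correlated between -0.475 and 0.508 in their deviations, and 2 of 18 correlated best with their own number, so the numbers do not pair the mice, and the replicate block called 51, 23 and 0 genes. Depth limits Il25, Gnat3 and Gfi1b, which the study's filter removes.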

Other observations

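Ranked over the 18 libraries, homozygous 6 was also highest for Sh2d6 and Alox5 and second for Dclk1 and Avil, while heterozygous 6 was lowest for Avil and Gfi1b. Control 2 was highest for Dclk1, Pou2f3 and Hpgds.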
